A study of Mus musculus with 2 samples.

Results

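The DNA replication and mitosis genes are 46 genes that dividing cells use to copy their DNA and to separate the copies, and they were followed here in mouse intestine exposed to cholic acid, a primary bile acid. The members were found by gene name among the probes that are no controls on an Agilent whole-mouse array, with Cdk1 also accepted under its older name Cdc2a. They were 46 of the 23619 genes named on the array, and 62 probes carried them. By role, 21 members belong to DNA replication, 18 to mitosis, 5 are regulators of the passage from G1 into S phase, and 2 are D-type cyclins. Intestinal segments of male, wild-type mice were held for 2 h in 0.5 µM cholic acid or in vehicle, which was 0.05% DMSO and 0.25% ethanol. Total RNA came from a preparation labelled as intestinal epithelial cells, and each condition was read on 1 array. The sample titles name the segments only as S_I and do not spell this out. The labels used here do not otherwise give the stretch of gut. Nor do they give the number of mice, pooling or the solvent of the cholic acid arm, so whether the arms were matched for solvent is not known. The series title places the study in a search for genes that bile acids control through the receptor PPARα. With 1 array per condition no difference has a replicate check, so no test was made and 2-fold is used only as a fixed limit for description.

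A cell that is about to divide first loads the MCM2-7 helicase onto its replication origins with the help of Cdc6 and Cdt1. In S phase Cdc45 and the GINS complex join the helicase, and the primase, the clamp loader and the sliding clamp Pcna start and carry the new strands. In mitosis Cdk1 with its cyclins, Plk1 and the Aurora kinases drive chromosome condensation and the spindle, and the anaphase-promoting complex ends it. Cells of the intestinal epithelium divide in the crypts and stop dividing as they move onto the villus.

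Many replication genes carry E2F sites in their promoters, and many mitotic genes carry a CHR (cell cycle genes homology region), the site read by MuvB complexes, often with CCAAT boxes. RefSeq promoter windows of build GRCm38.p6, which run from 250 bases before a gene's start to 50 bases after it, were matched by symbol for 36 of the 46 members, in 38 windows. Aurkb, Ccna2, Ccnd1, Ccnd2, Ccne2, Foxm1, Gins1, Gins2, Mcm4 and Stmn1 were not matched. Both strands were searched for the E2F sites TTTCCCGC, TTTCGCGC, TTTGCCGC and TTTGGCGC, for the CHR TTTGAA and for CCAAT. The sequences shown are those of the replication members with an E2F site, and the mitotic members with a CHR, that differed most between the arrays. Capitals mark E2F, CHR and CCAAT matches, and each sequence reads 5′ to 3′ towards or along the gene.
Mcm5, chr8:75109259-75109508, plus strand: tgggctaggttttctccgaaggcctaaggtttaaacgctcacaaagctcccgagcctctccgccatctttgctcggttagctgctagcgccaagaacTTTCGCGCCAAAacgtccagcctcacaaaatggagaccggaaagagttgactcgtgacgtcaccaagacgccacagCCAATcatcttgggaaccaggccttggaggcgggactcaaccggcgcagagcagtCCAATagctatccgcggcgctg
Mcm3, chr1:20820265-20820294, minus strand: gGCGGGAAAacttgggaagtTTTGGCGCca
Cdk1, chr10:69352913-69353162, minus strand: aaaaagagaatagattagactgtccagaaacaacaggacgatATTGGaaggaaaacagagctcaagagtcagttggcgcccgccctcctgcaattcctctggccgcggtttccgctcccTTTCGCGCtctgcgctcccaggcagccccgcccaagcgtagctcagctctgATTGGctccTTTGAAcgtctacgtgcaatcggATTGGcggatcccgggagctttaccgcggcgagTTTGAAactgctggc
Bub1b, chr2:118598231-118598260, plus strand: ctgcgtcaagagacgttaaaTTTGAAactt

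In Mcm5 2 E2F matches, on opposite strands, overlapped and began 153 and 149 bases before the start. In Mcm3 the 2 E2F matches lay 19 and 38 bases after the start, so only 30 bases around them are shown. The Cdk1 promoter held 1 E2F site, 3 CCAAT boxes and 2 CHR matches, which began 71 and 15 bases before the start. The CHR of Bub1b began 40 bases after its start. An E2F site was in 8 of the 19 windows of replication members (42.1%), in 1 of the 14 windows of mitotic members (7.14%), and in 744 of all 32851 windows (2.27%). A CHR was in 11 of 14 mitotic windows (78.6%), in 2 of 19 replication windows (10.5%), and in 5878 of all windows (17.9%). CCAAT was in 13 of 14 mitotic and 14 of 19 replication windows, against 37.4% of all windows. The replication and mitotic members thus differed in the letters of their promoters, and these matches describe the sequence only.

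**Figure D1:**
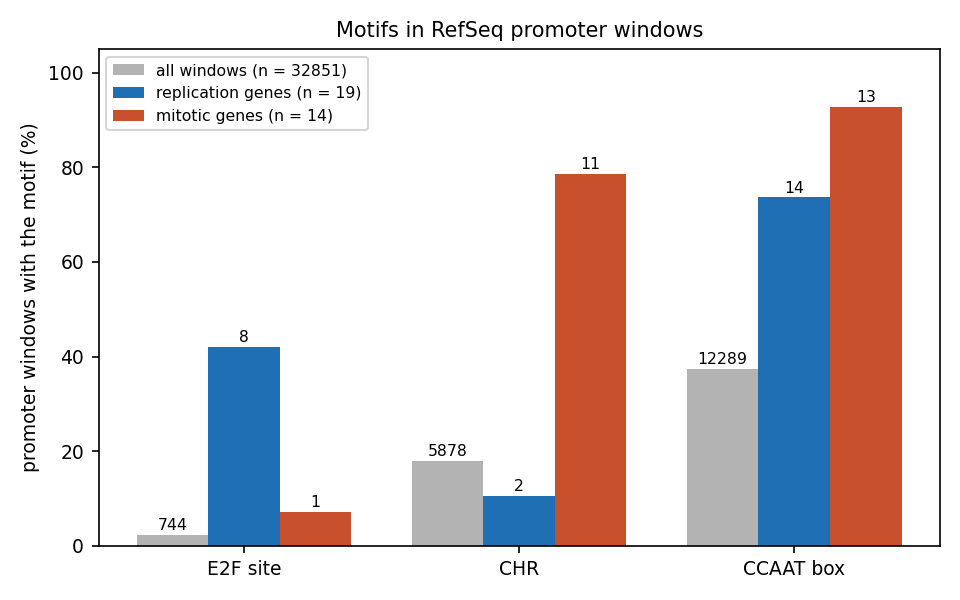
Share of RefSeq promoter windows (percent, vertical axis) that hold an E2F site, a CHR or a CCAAT box, for all 32851 windows (grey), 19 windows of replication members (blue) and 14 windows of mitotic members (red). The number above each bar is its count of windows. The E2F bar is highest for the replication members (42.1%) and the CHR bar for the mitotic members (78.6%).

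A probe counts as measured where the scanner software marked it well above background. This held for 24201 of 55681 probes with vehicle and 24447 with cholic acid, and 12806 genes were measured on both. The 75th percentile of signal was 1060 with vehicle and 741 with cholic acid, and dividing by it raises every cholic acid value 1.43-fold against the vehicle value. Differences are given as log2 of the scaled cholic acid signal minus log2 of the scaled vehicle signal, while signals are printed before scaling. Over all measured genes the median difference was 0.08, with quartiles of -0.22 and 0.44. Repeated spots of 1 probe gave a median SD of 0.108 for such a difference over 210 probes, and 0.179 among the dimmer of them. That error is of the spot on the array and holds none of the spread between mice or segments. All 12 enterocyte markers were measured on both arrays, and so were all 14 T cell markers.

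Of the 46 members, 40 were measured on both arrays, 1 (Tyms) with cholic acid only and 5 (Cdc6, Ccne2, Aurkb, Bub1 and Kif11) on neither. Of the 40, 6 (4 in the helicase ring, 1 kinase and 1 cyclin) were at least 2-fold higher with cholic acid, and 0 were at least 2-fold lower. Across the 12806 measured genes, these shares were 6.50% higher and 2.05% lower. The 6 members were Mcm5, Cdk1, Mcm3, Mcm6, Ccnd1 and Mcm4. The count depended on the processing: it was 2 higher and 1 lower with the percentile over all probes, with quantile normalization, with loess and in the authors' deposited values, where 3.28% to 3.98% of all genes were higher. It was 1 higher and 0 lower with normexp, where 2.09% of all genes were higher. The members' median difference was 0.63, with 35 above 0 and 5 below, beside 7343 of 12806 genes above 0. Against the median of all genes, 34 of the 40 members were higher. Higher and lower refer to this scaling throughout, and scalings that turn a direction are given with the processings. No direction could be checked in another culture or animal, and in bulk RNA fewer dividing cells and less of an RNA per cell cannot be told apart.

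**Figure D2:**
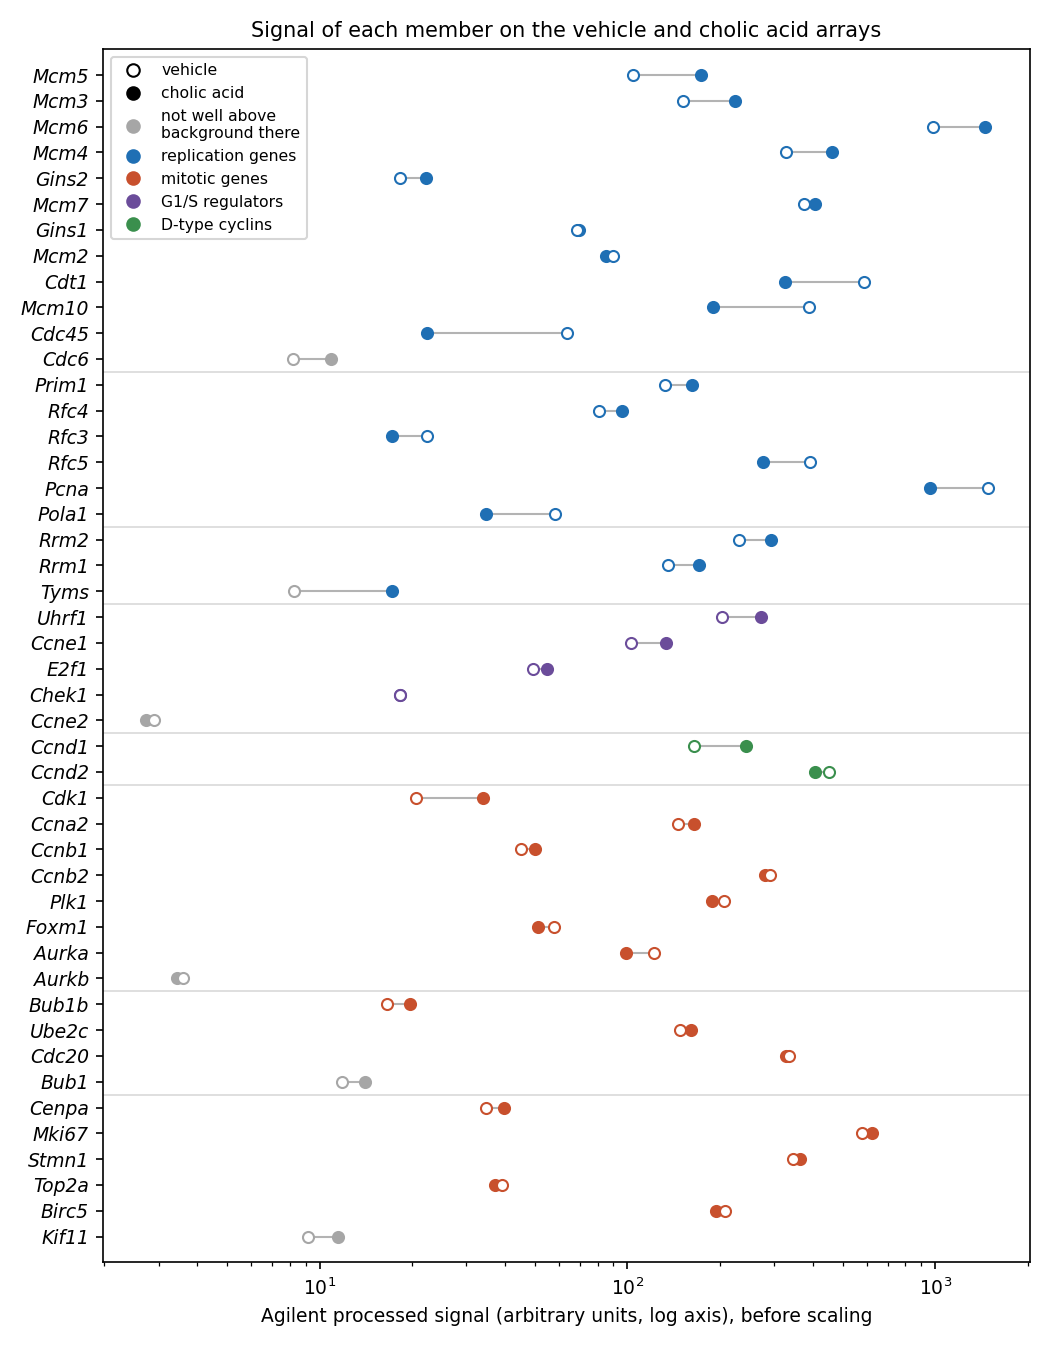
Processed signal of each of the 46 members (arbitrary units, log axis, before scaling) with vehicle (open circles) and with cholic acid (filled circles), ordered by role and then by difference. Grey circles were not well above background on that array. Mcm5 (104 and 174) and Mcm6 (986 and 1450) lie apart with cholic acid brighter. Cdc45 (63.7 and 22.3) and Mcm10 (389 and 189) lie further apart with vehicle brighter. Most mitotic genes, such as Cdc20 (335 and 328), nearly coincide.

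The helicase subunits Mcm2 to Mcm7 form the ring that unwinds DNA at the fork, and Mcm3 to Mcm6 held the highest differences among the replication members. The signal of Mcm5 was 104 with vehicle and 174 with cholic acid, a difference of 1.26 or 2.39-fold after scaling. Its probe lies on chromosome 8 from 77651350 to 77651410 (mm9, plus strand, as the scanner files give it; an annotation of exons and UTRs in that build was not used). Mcm6 had signals of 986 and 1450 (1.07, 2.10-fold higher on the cholic acid array). Mcm4 had 328 and 462, a difference of 1.01, which lies just inside the 2-fold limit at 2.01-fold. Before scaling these 3 genes and Mcm3 differed by 0.49 to 0.74. The scaling shifts all genes alike, so the order of the members is the same without it.

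Mcm3 was read by 2 probes on chromosome 1, from 20793119 to 20793178 and from 20793136 to 20793195 (mm9, minus strand), which share most of their sequence. The first gave 199 and 306 and the second 115 and 164, and their differences of 1.14 and 1.03 averaged to 1.08 (2.12-fold higher on the cholic acid array). In their overlap of 43 bases the probes differ at 1 base, shown in capitals in the 30-base stretch around it:
Mcm3, first probe: aagctttctttgcGattagactagtatgta
Mcm3, second probe: aagctttctttgcAattagactagtatgta
Counted from the 5′ end of the stretch, the change from the second probe to the first is A14G. The signals of the 2 probes are therefore repeats of nearly the same site rather than separate readings of the gene.

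The other 2 subunits differed less. Mcm7 had signals of 374 and 408 (0.64, 1.56-fold), and Mcm2 had 90.0 and 85.1 (0.44, 1.35-fold), the lowest of the 6. The median over the 6 subunits was 1.04, against 0.14 over the other 13 replication members measured; this split was chosen after the values were seen. Taken over these members alone, where measured, the gap cannot change in 7 of the 14 processings. Those shift all genes alike or only change the filter without altering these members' values. In the other 7 the gap was 0.51 to 1.02. Looser filters on dim probes measured 21 replication members, but this gap leaves out the added Cdc6 and Tyms.

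Cdc45, Mcm10 and Cdt1, which load or activate the helicase, stood below 0. Cdc45, the subunit that joins the ring at firing, read 63.7 ± 7.26 with vehicle and 22.3 ± 3.92 with cholic acid, where ± is the scanner's own error of the spot. The difference was -0.998, or 1.997-fold lower with cholic acid, which lies just outside the 2-fold limit. Mcm10, which helps to activate the helicase, had 389 and 189 (-0.52, 1.44-fold lower). Cdt1, the loading factor, had 587 and 326 (-0.33, 1.26-fold lower). Mcm10 and Cdt1 stood below 0 and below the all-gene median in 14 processings. Cdc45 did so in the 13 that measured it, although it was only at -0.082 with normexp background correction. Many of these outcomes were fixed. A shift of all genes alike cannot change a place against the all-gene median. A change of filter leaves these genes, each with 1 probe, at the same values. The count of processings therefore does not measure how stable these directions are.

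The remaining factors of this role lay between. The GINS subunits Gins1 (68.7 and 69.6) and Gins2 (18.3 and 22.1) differed by 0.54 and 0.79. The loader Cdc6 was not well above background in either condition, where its 2 probes read 7.74 and 8.66 with vehicle and 9.60 and 12.4 with cholic acid. Over the role, 11 of 12 genes were measured, 4 were at least 2-fold higher, and the median was 0.64 with a range from -0.998 (Cdc45) to 1.26 (Mcm5).

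Genes of the clamp, clamp loader and primase had a median of 0.07 over 6 measured genes, close to the 0.08 of all genes. Pcna, the sliding clamp that holds polymerases on DNA, had a signal of 1480 with vehicle and 960 with cholic acid, a difference of -0.11 (1.08-fold lower). Pola1, the catalytic subunit of polymerase alpha, had 58.2 and 34.8 (-0.23). Prim1, the primase subunit that works with it, had 132 and 162 (0.81, 1.76-fold higher), so these partners of 1 complex stood on opposite sides of 0 under this scaling. Pola1 turned to above 0 with normexp background correction.

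The clamp loader subunits were uneven too. Rfc4 was higher by 0.76, with 2 probes at 0.61 and 0.91, while Rfc3 (22.4 and 17.2) differed by 0.14. The 2 probes of Rfc5 disagreed in direction, at 0.23 (482 and 396) and -0.21 (318 and 192), and averaged 0.01. The second of them shared a run of 15 bases with promoter windows of 13 other genes, more than any other member probe. Transcript sequences were not searched, and a bearing of this sharing on the signal was not tested.

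Genes that supply deoxynucleotides were higher where they could be measured, except on the spike-ins, where Rrm1 and Rrm2 were at -0.013 and -0.0095. The ribonucleotide reductase subunits Rrm1 (135 and 171) and Rrm2 (230 and 292) both differed by 0.86, or 1.81-fold and 1.82-fold. The thymidylate synthase Tyms was not well above background with vehicle, at 8.28, and read 17.2 with cholic acid. Against the lowest vehicle signal of any probe well above background, 14.6, this is at least 1.69-fold higher after the 1.43-fold scaling. That bound is under the 2-fold limit and holds under this scaling only. The signal of 17.2 had a scanner error of 3.61, so the bound is itself uncertain.

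Of the 5 regulators of S phase entry 4 were measured, all above 0 after the 75th percentile scaling, with a median of 0.77; Chek1 and E2f1 turned below 0 on the spike-ins. Uhrf1, which couples DNA methylation to replication, had 203 and 271 (0.93), and Ccne1, a cyclin that activates Cdk2, had 103 and 133 (0.89). The transcription factor E2f1, which switches on replication genes, had 49.4 and 54.7 (0.66). The checkpoint kinase Chek1 read 18.3 on both arrays, and its difference of 0.52 is therefore the scaling alone. Ccne2 was not well above background in either condition (2.90 and 2.72).

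The D-type cyclins link growth signals to G1 progression, and they differed from each other in size. Ccnd1, a known target of Wnt signalling, had 165 and 242 (1.07, 2.10-fold higher on the cholic acid array). Ccnd2 had 452 and 407, a scaled difference of 0.37 (1.29-fold). The Ccnd1 probe lies on chromosome 7 from 152116202 to 152116261 (mm9, minus strand).

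Among the kinases and cyclins of mitotic entry, 7 of 8 genes were measured, with a median of 0.46. Cdk1, the kinase that starts mitosis, had the highest value of the mitotic members, 1.23 (2.35-fold higher), from mean signals of 20.6 and 33.9. That value rested on 1 probe. The probe on chromosome 10 from 68799513 to 68799572 (mm9, minus strand) read 18.8 ± 3.88 and 45.5 ± 5.54 (1.79), while the probe from 68801072 to 68801131 read 22.6 ± 3.83 and 25.2 ± 3.82 (0.67). Another probe, which overlaps the latter and has the same GC content of 18.3%, was not well above background at all (3.49 and 3.30). By the probe at 0.67 alone, Cdk1 lay among the other mitotic genes.

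Ccnb1, the B-type cyclin that binds Cdk1, had mean signals of 45.0 and 50.1 and a difference of 0.67, with 2 probes at 0.56 and 0.79. The remaining Ccnb1 probe was not well above background. Ccna2 (146 and 164) differed by 0.68 and Ccnb2 (290 and 279) by 0.46. The kinases Plk1 (206 and 188) and Aurka (122 and 99.0) differed by 0.38 and 0.22, and the transcription factor Foxm1 (57.9 and 51.2) by 0.34. Of the measured mitotic members these 3 lay closest to the median of all genes. Aurkb was not well above background with either treatment (3.61 and 3.44).

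The checkpoint and anaphase-promoting complex genes had a median of 0.63 over the 3 measured. Bub1b, a checkpoint kinase, had 16.6 and 19.7 (0.76). Ube2c, the ubiquitin-conjugating enzyme of the complex, had 148 and 161 (0.63), and its activator Cdc20 had 335 and 328 (0.49). Bub1, the partner of Bub1b, was printed in 10 spots, of which 3 were well above background with vehicle and 5 with cholic acid, so it counted as not measured. The geometric means of those spots were 11.8 and 14.1, with SDs of 0.63 and 0.32 on the log2 scale.

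Chromosome and spindle genes were close to each other, with 5 of 6 measured and a range from 0.41 to 0.71. Mki67, the Ki-67 protein used as a stain for dividing cells, had mean signals of 577 and 624 and a difference of 0.63, with 2 probes at 0.62 and 0.64. Top2a, which untangles sister DNA, had 39.2 and 37.2 (0.44). The tubulin-binding Stmn1 (344 and 364) differed by 0.60, with probes at 0.59 and 0.61, and the centromere histone Cenpa (34.7 and 39.6) by 0.71. Birc5, the survivin of the chromosome passenger complex, had 3 probes at 0.65, 0.21 and 0.38 and a mean of 0.41. The spindle motor Kif11 was not well above background in either condition (9.20 and 11.5).

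**Figure D3:**
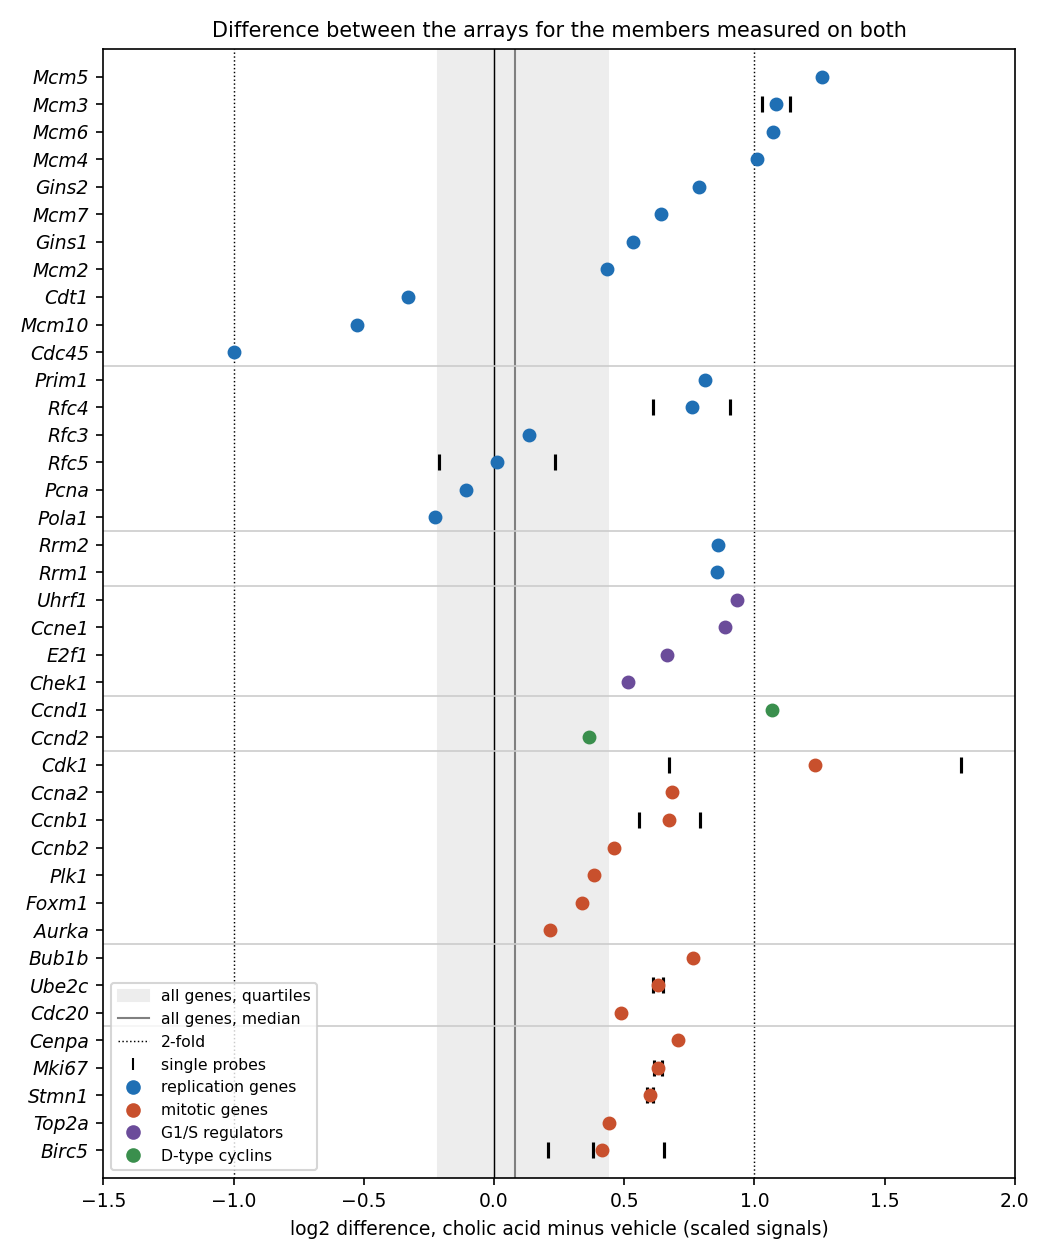
log2 difference between the arrays (cholic acid minus vehicle, scaled signals) for the 40 members measured on both, by role, with single probes as ticks where a gene has several. The grey band spans the quartiles of all genes (-0.22 to 0.44), the grey line their median (0.08) and the dotted lines mark 2-fold. Replication genes run from -0.998 to 1.26, while mitotic genes keep to 0.22 to 0.76 apart from Cdk1 at 1.23.

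The replication and mitotic members had medians close to each other and a different spread. The median was 0.64 over 19 replication genes and 0.60 over 15 mitotic genes (-0.23 and -0.27 on the spike-ins), a gap of 0.04. The quartiles of the replication genes were -0.05 and 0.86, an interquartile range of 0.91, against 0.43 and 0.68, a range of 0.25, for the mitotic genes. All genes together had an interquartile range of 0.65. A scaling that shifts every gene alike cannot change this range; over the 14 processings it was 0.63 to 0.92 for replication genes and 0.13 to 0.27 for mitotic genes.

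All 15 mitotic genes stood above the median of all genes, beside 13 of the 19 replication genes. Without a filter on dim probes that median was 0.40, and Aurka, Foxm1 and Plk1 were below it. All 5 members below 0 (Cdc45, Mcm10, Cdt1, Pola1 and Pcna) were replication genes. Of these, Pcna at -0.11 was close to the median of -0.095 over the 1000 genes nearest to it in signal. With loess on mean signal Pcna was at -0.024. Of the members at least 2-fold higher, 4 were replication genes and 1 was mitotic. No test of these differences was made, since genes read on the same pair of arrays are not replicates of a condition.

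**Figure D4:**
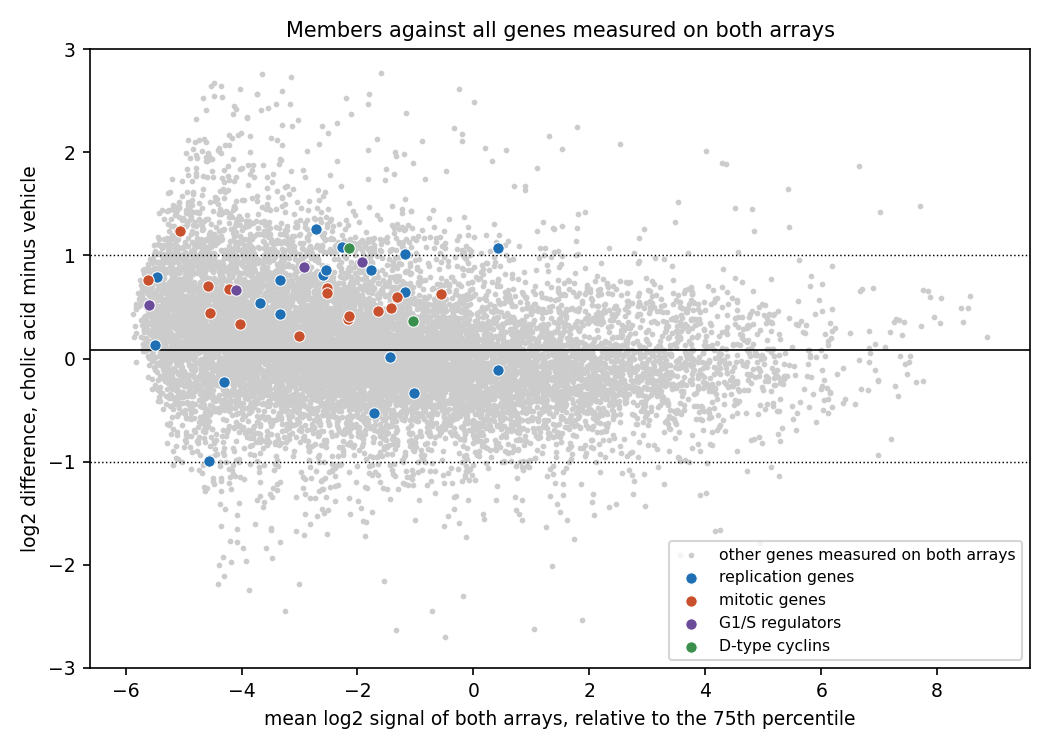
log2 difference between the arrays (vertical axis) against the mean scaled log2 signal of both arrays (horizontal axis) for genes measured on both, with other genes in grey and the members in colour. The solid line is the median of all genes, the dotted lines mark 2-fold, and 12 genes lie outside the axis limit of 3. Mitotic genes (red) form a narrow band above the median, and replication genes (blue) lie on both sides of it.

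Detection and signal bore on both classes. Of the replication genes 19 of 21 were measured on both arrays, and of the mitotic genes 15 of 18. Genes of low signal were higher on the cholic acid array more often than bright ones. The median difference was 0.31 over the 4269 genes of lowest signal, 0.07 over the 4268 in the middle and -0.08 over the 4269 brightest, and 11.9%, 5.46% and 2.18% of these genes were at least 2-fold higher. The replication genes numbered 7, 10 and 2 in these bands, with medians of 0.44, 0.83 and 0.48. The mitotic genes numbered 6, 8 and 1, with medians of 0.69, 0.47 and 0.63. Each of these medians was above that of all genes in the same band. The median GC content of the probes was 40.8% for replication and 43.3% for mitotic probes beside 43.3% for all measured probes. The probes of Mcm3 to Mcm6 had a median of 40% (31.7% to 45.0%), and those of the 5 members below 0 a lower median of 35.0% (35.0% to 43.3%). With a lowess on GC content these 5 members stayed below 0.

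The scaling set the sign of most members. Before scaling, the median difference was 0.08 for mitotic and 0.13 for replication genes, against -0.43 for all genes, and 8 of the 15 mitotic genes were above 0 and 7 below, from -0.30 (Aurka) to 0.72 (Cdk1). With scaling on the Agilent spike-in RNAs, which were brighter on the cholic acid array by 0.35, the medians turned to -0.23 for replication and -0.27 for mitotic genes. The median of all genes then moved by -0.87. Of 14 processings, 13 held all 40 members and that which asks for a signal of at least 50 held 30. In those that measured it, each of 8 members stayed above 0 (Mcm3, Mcm4, Mcm5, Mcm6, Ccnd1, Ccne1, Uhrf1 and Cdk1), each of 4 stayed below 0 (Cdc45, Cdt1, Mcm10 and Pcna) and 28 were on either side. Leaving out the spike-in scaling and the unscaled signals (12 processings remain), 32 members stayed above 0, 4 below, and 4 (Aurka, Pola1, Rfc3 and Rfc5) were on either side. Set against the all-gene median of each processing that measured them, 29 members were above throughout, 5 were below, and 6 (Aurka, Foxm1, Plk1, Ccnd2, Rfc3 and Rfc5) changed sides. In those terms the replication median was higher by 0.36 to 0.61 and the mitotic median by 0.22 to 0.52. Processings that shift all genes alike could not change any place against that median.

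**Figure D5:**
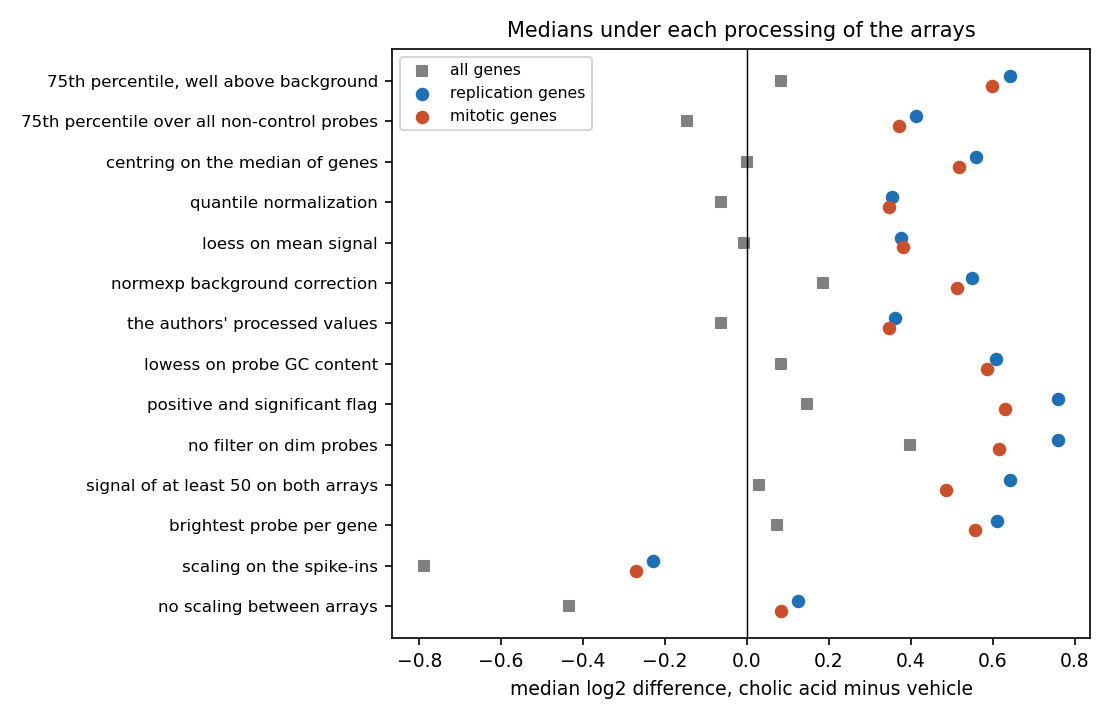
Median log2 difference (cholic acid minus vehicle) of replication members (blue), mitotic members (red) and all genes (grey squares) under each of 14 processings. The blue and red points lie to the right of the grey square in every row, and both turn below 0 with scaling on the spike-ins (-0.23 and -0.27).

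The values of replication genes with and without a promoter motif overlapped for each of the 3 motifs. The 7 measured replication genes with an E2F site ran from -0.33 (Cdt1) to 1.26 (Mcm5), with a median of 0.64, and the 9 without a match in their windows ran from -0.998 to 0.86, with a median of 0.44. The 13 with CCAAT had a median of 0.64 and the 3 without 0.01, while Cdc45 (-0.998) and Mcm2 (0.44), the 2 with a CHR, stood beside a median of 0.70 over the 14 without. The 10 measured mitotic genes with a CHR had a median of 0.56 and a range from 0.22 to 1.23. Birc5 and Ccnb1, whose windows held no CHR, had differences of 0.41 and 0.67.

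Other genes of the same pathways did not show the difference in spread seen between the members' classes. Their interquartile range was 0.62 for replication and 0.63 for mitotic genes, and 3 of 37 replication and 6 of 40 mitotic genes lay below 0. Of 48 other replication genes 37 were measured on both arrays, with a median of 0.59, 8 at least 2-fold higher and 0 lower. Of all measured genes 6.50% were at least 2-fold higher and 2.05% lower, and in the band of lowest signal 11.9% were higher. The fork protection factor Tipin (75.9 and 152) was highest at 1.52, followed by the nuclease Exo1 (21.0 and 40.9, 2.79-fold), the single-strand binding protein subunit Rpa2 (51.0 and 98.5, 1.47) and the polymerase delta subunit Pold1 (97.7 and 176, 1.37). Of 63 other mitotic genes 40 were measured, with a median of 0.52, 4 at least 2-fold higher and 0 lower, beside the same shares of all genes. The condensin subunit Ncaph (51.9 and 87.4) had 1.27, the kinetochore protein Spc24 (18.5 and 28.4) had 1.13, the Cdk subunit Cks1b had 1.08 and the spindle pole protein Aspm had 1.02.

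Cell cycle inhibitors and quiescence genes had a median of -0.21 over 22 genes. The inhibitor locus Cdkn2a was 4.08-fold higher (18.4 and 52.5, dim with vehicle) and the stress gene Gadd45a 2.00-fold lower (845 and 295). The E2F, MYB and MYC regulators had a median of 0.17 over 16 of 21 genes, with 0 at least 2-fold apart; Cdc25a, E2f2 and Ccnd3 had -0.08, 0.39 and 0.48. The p53 target genes had a median of -0.03 over the 16 measured on both arrays, of which Gadd45a alone was at least 2-fold apart. Plk2 (9.09 and 33.8) and Phlda3 (5.27 and 15.6) were well above background with cholic acid only. The replication-dependent histone genes, whose RNAs accumulate in S phase and mostly lack a poly(A) tail, had a median of 0.11 over 39 genes. In that list H2bu2 (1.41), H3c11 (1.15) and H1f6 (1.13) were at least 2-fold higher, and H1f2 (-1.44), H3c15 (-1.09) and H2bc1 (-1.003) at least 2-fold lower. Of all measured genes 6.50% were at least 2-fold higher and 2.05% lower. Histone probes can share sequence between near-identical genes, so their single values are uncertain.

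Markers of several cell types also differed between the arrays. Crypt stem and progenitor markers had a median of 0.19 over 11 of 15 genes, with 0 of these 11 at least 2-fold apart. Tnfrsf19 was well above background with cholic acid only, with highest probe signals of 11.5 with vehicle and 71.6 with cholic acid. The summed signal of the 11 before scaling was 15266 with vehicle and 11868 with cholic acid. Msi1 (9400 and 5840) and Ephb3 (4440 and 5040) made up 90.7% of the vehicle sum. Msi1, Ephb3 and Rnf43 had -0.17, 0.70 and -0.66, and the stem cell receptor Lgr5 was not well above background in either. Enterocyte markers had a median of -0.45 over 12 genes, with the apolipoprotein Apoa4 3.45-fold lower. T cell markers had a median of 0.86 over 14 genes, with 13 above 0, and summed to 117990 and 127400. In that list Cd2 (2.57), Lat (2.38), Gzmb (1.17) and Cd3d (1.09) were highest, and Cd4 was at -0.71.

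B and plasma cell markers had a median of 1.49 over 8 of 11 genes, 5 of them at least 2-fold higher, beside 6.50% of all genes. Their signals before scaling summed to 4660 and 4078. Jchain (3100 and 2190, 0.02) and Blnk (1180 and 687, -0.26) made up 91.9% of the vehicle sum. Cd79b (134 and 640), Cr2 (18.4 and 80.5), Pou2af1 (43.7 and 185) and Cd79a (39.2 and 79.7) had the largest differences, and the B cell markers Ms4a1 and Fcrla reached well above background with cholic acid only. Germinal centre B cells divide fast; 4 of 9 of their markers were measured, with a median of 0.11, and Gcsam, Mybl1 and S1pr2 were not well above background in either condition. Haemoglobin genes were higher too, with Hbb-b2, Hba-a1 and Hba-a2 at 1.52, 1.20 and 1.07, while the red cell precursor genes Alas2 and Klf1 were not well above background. The part of lymphocytes, crypt cells or blood in the members' differences was not tested.

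The remaining marker lists differed less or rested on few genes. Tuft cell markers had a median of 0.53 over 6 genes, with Gfi1b (1.53) and Dclk1 (1.47) highest, and enteroendocrine markers 0.35 over 10, with Gcg at 1.01. Goblet markers had a median of 0.05 over 7 genes, Paneth markers -0.13 over 5, and myeloid markers 0.12 over 6, with Itgax at 1.07. Fibroblast markers had 0.57 over 5 genes, with Thy1 (2.04) and Dcn (1.60) highest, and smooth muscle markers 0.69 over 5, with Cnn1 at 1.74. Of 7 endothelial markers only Pecam1 (-0.25) and Kdr (0.40) were measured on both arrays.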

How the data were processed

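The scanner files were deposited by the authors as Agilent Feature Extraction output of 1-colour arrays (version 10.7.1.1 per the file headers, 9.5.1.1 per the submitters' processing notes), and their processed signal is a background-subtracted intensity. The authors' deposited value table holds processed intensities of the same arrays, which were turned into log2 values and used as an alternative. Spots marked as outliers (124 and 119) and controls were left out. Spots of a probe were averaged as log2, each array's 75th percentile over probes well above background on both arrays was subtracted, and a gene is the mean of its probes measured on both. A probe counted as well above background where more than a share of 0.5 of its spots did. Names came from the scanner files, updated through RefSeq accessions. Python 3.11.15, pandas 2.3.3 and limma 3.58.1 (normexp) were used. The steps were checked on simulated differences, with the same shift for all genes and as many raised as lowered. Such a check cannot bear on the choice of scaling. All members are named; those 2-fold apart or dim, with Pcna, Mki67, Top2a, Ccnd1, Ccnb1 and Mcm2, have full values, and lists name up to 4 genes 2-fold apart, or 3 bright ones. Members and lists were chosen with earlier results of these data known. A few marker genes are not reported here.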

Additional observations from a re-analysis of the deposited data

How the results depend on the processing

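With the percentile over all non-control probes, 2 members were at least 2-fold higher and 1 lower (3.28% and 4.20% of all genes), and the medians were 0.41 (replication) and 0.37 (mitotic). Centring on the median gave 3 and 1 (4.998% and 2.62%). Quantile normalization gave 2 and 1 (3.45% and 3.28%), with medians of 0.35 and 0.35. Loess on mean signal gave 2 and 1 (3.98% and 2.79%), medians of 0.38 and 0.38, and a gap between the classes that turned to -0.0059. Normexp gave 1 member higher (2.09% of all genes). The authors' deposited values gave 2 and 1 (3.48% and 3.30%), with medians of 0.36 and 0.35, and a lowess on probe GC content gave 1 lower, Cdc45 (2.02%). The replication median was 0.76 with the positive and significant flag and without a filter on dim probes. With signals of at least 50 the mitotic median was 0.49 and the gap 0.16. A 1.5-fold limit gave 22 higher and 1 lower (17.7% and 7.68%), and a 3-fold limit 0 higher (1.37%). Of processings chosen after seeing the data, the spike-ins gave 0 higher and 4 lower (0.875% and 31.7%) with medians of -0.23 and -0.27, no scaling gave 0 and 2 (1.58% and 10.71%) with 0.13 and 0.082, and leaving out MCM2-7 gave a replication median of 0.14 and a gap of -0.46. Of 510 single-gene values under the alternatives 286 moved by less than the spot SD of 0.108 and 224 by more. Many of these outcomes were fixed by the processing. A shift of all genes alike moves all of them or none, and a change of filter leaves most genes with 1 probe as they were. The tally therefore does not measure how stable single genes are. No paired analysis was possible because each condition has 1 array, and none can be left out. Dim members (Cdk1, Gins2, Chek1, Rfc3, Bub1b) sit near the lowest usable signals, 14.6 and 13.0.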
